A study of Mus musculus with 12 samples.

Results

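RNA of mature sperm from Xap5l knockout (Xap5l KO) mice was compared with RNA of wild-type (WT) sperm across all genes of the deposited count table. These were 6 of the 12 samples of the series: 3 libraries of WT sperm and 3 of Xap5l KO sperm, all taken from the cauda epididymis at postnatal day 56 (P56). The knockout was global, made with CRISPR-Cas9 on the C57BL/6J background and described as 1 established line, so every cell type in the preparation carried it. The table held 51826 entries, of which 20945 had enough reads to be tested and 13810 had no count in any sperm library. Nothing in the labels says how many mice gave each library, so the p-values measure only the spread between these libraries.

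Xap5l is the protein of Fam50b, a testis-expressed retrotransposed copy of the X-linked gene Fam50a, which encodes the general nuclear protein Xap5. Sperm hardly transcribe. The RNA they carry is mostly left over from spermatids, the haploid cells that first build the acrosome and the flagellum (round stage) and then pack the nucleus with protamines and shed their cytoplasm (elongating stage). A cauda sperm preparation also holds RNA of the few epididymal, blood and immune cells that come with it.

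Fam50b had 574, 440 and 419 counts in WT sperm against 18, 23 and 8 in Xap5l KO sperm. The genotypes did not overlap. In CPM, which are counts scaled to library size, its level was 12.3 ± 4.48 CPM (SD, n = 3) in WT and 0.355 ± 0.195 CPM (SD, n = 3) in Xap5l KO, a log2 change (the log2 of the fold change, Xap5l KO over WT) of -5.15 ± 0.47 (SE). Its adjusted p was 0.0118, from the quasi-likelihood test of edgeR adjusted by the Benjamini-Hochberg method, as for every adjusted p here. The gene lies at chr13:34734850-34747623 of GRCm38. The study's quantitative PCR primers for Xap5l match a Fam50b transcript of 1229 bases, the sense primer at bases 16 to 36 and the antisense primer at bases 122 to 141, so the table's Fam50b row is the targeted gene. Those primers, shown because they tie the 2 names to the same RNA, were:
sense: cgcaaaagcaccagaaggaag
antisense: gttcagcgcaaggctttttg
Fam50a had 548, 705 and 689 counts in WT sperm against 296, 487 and 649 in Xap5l KO sperm. Its level was 16.1 ± 1.05 CPM (SD, n = 3) in WT and 9.46 ± 1.46 CPM (SD, n = 3) in Xap5l KO, a log2 change of -0.76 ± 0.20 (adjusted p = 0.0393), which passed the p threshold but not the 2-fold threshold. In CPM the 3 Xap5l KO libraries of Fam50a all lay below the 3 WT libraries.

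Within 500 kb of Fam50b, 12 other genes are annotated and 8 of them were tested. Only Fam217a was called, at 4223, 3478 and 3727 counts in WT sperm against 8606, 9756 and 12254 in Xap5l KO sperm, with a log2 change of 1.12 ± 0.26 (adjusted p = 0.0288); it lies 162.3 kb downstream. 4933417A18Rik, the next gene along, had a log2 change of 0.76 ± 0.22 (adjusted p = 0.0513) and was not called. Prpf4b, a splicing kinase and the nearest tested protein-coding gene on that side, had -0.39 ± 0.25 (adjusted p = 0.28). The other 5 tested neighbours had log2 fold changes from -0.49 to 0.82 and none was called.

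The libraries held 38881197 to 52308452 counts. Mitochondrially encoded genes took 19.3 to 24.0% of the counts in WT and 27.4, 18.6 and 10.5% in Xap5l KO replicates 1, 2 and 3, so Xap5l KO replicate 3 had the smallest share. It also stood apart on the second principal component (48.8, against -22.1 to 8.02 for the other libraries), and WT replicate 1 lay nearest to the Xap5l KO side on the first (-17.5, against -45.9 and -48.3). A gene was called when its adjusted p was under 0.05 and its fold change above 2. By that rule 1589 genes were upregulated (7.59% of those tested) and 267 downregulated (1.27%), and the median log2 fold change over all tested genes was -0.08. The count of calls rested on the full set of libraries: when Xap5l KO replicate 2 or either of WT replicates 2 and 3 was left out, at most 1 gene stayed upregulated and at most 2 downregulated, and leaving out Xap5l KO replicate 1 left 483 and 71. The directions of all 1856 called genes were kept in every one of these fits. That was nearly fixed in advance, since in 1833 of them the genotypes did not overlap in the full set. At an unadjusted p under 0.05, 2018 to 3176 genes were more than 2-fold higher across the 6 fits and 532 to 811 more than 2-fold lower.

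Among called genes the rises were larger and more frequent than the falls. The upregulated genes had a median log2 fold change of 1.45 (quartiles 1.22 and 1.72), and 172 of them exceeded 2. The downregulated genes had a median of -1.25, and 20 fell below -2. Over 10 bins of mean CPM with equal numbers of genes, the upregulated share was 2.58% in the lowest bin, 10.1% in the fourth and 9.55% in the highest.

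**Figure D1:**
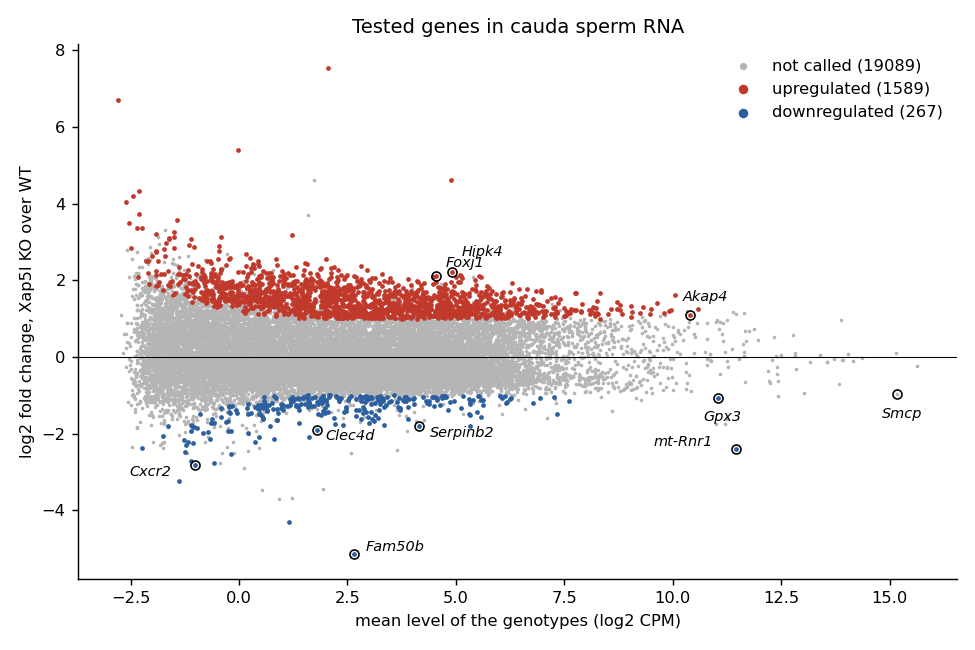
Log2 fold change of Xap5l KO over WT sperm (vertical axis) against the mean level of the genotypes in log2 CPM (horizontal axis) for the 20945 tested genes. Red points are the 1589 upregulated genes and blue points the 267 downregulated genes, and ringed points carry gene names; Fam50b is the lowest point, at -5.15, and Smcp, among the most abundant transcripts, is grey.

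Rises and falls were ranked among called, named genes with at least 5 CPM in a genotype and no overlap between genotypes. Among the 10 largest rises were genes of the sperm head and tail, testis-expressed multicopy genes and a protocadherin. Hipk4, a kinase of round spermatids that shapes the sperm head, had 362, 397 and 541 counts in WT sperm against 1982, 3635 and 1582 in Xap5l KO sperm. Its level was 10.7 ± 1.15 CPM (SD, n = 3) in WT and 49.8 ± 20.1 CPM (SD, n = 3) in Xap5l KO, a log2 change of 2.22 ± 0.32 (adjusted p = 0.0122). Every Xap5l KO library exceeded every WT library, and replicate 2 was the highest.
Cfap58, a flagellar protein needed for the midpiece and axoneme, had 465, 628 and 426 counts in WT sperm against 2122, 3681 and 2371 in Xap5l KO sperm, a log2 change of 2.13 ± 0.27 (adjusted p = 0.0118). Ccdc105, a tektin-like protein of the microtubule lumen in sperm tails, had 486, 514 and 570 counts in WT sperm against 2445, 3724 and 1946 in Xap5l KO sperm, a log2 change of 2.12 ± 0.29 (adjusted p = 0.0118); it overlaps a gene on the other strand. In all of these the 3 Xap5l KO libraries lay well above the 3 WT libraries.
Trim69, a RING-type protein of the TRIM family, had 664, 672 and 736 counts in WT sperm against 2944, 5284 and 2629 in Xap5l KO sperm and a log2 change of 2.11 ± 0.29 (adjusted p = 0.0118). Tssk5, of the testis-specific serine kinases, had 77, 67 and 81 counts in WT sperm against 368, 440 and 384 in Xap5l KO sperm and 2.14 ± 0.28 (adjusted p = 0.0118). Akap14, an axonemal anchor of protein kinase A on the X chromosome, had 52, 72 and 66 counts in WT sperm against 345, 450 and 200 in Xap5l KO sperm and 2.18 ± 0.38 (adjusted p = 0.0146). The libraries of the genotypes did not overlap in these genes, and Akap14 was lower in Xap5l KO replicate 3 than in replicates 1 and 2. Fam47c, another X-linked gene, had a log2 change of 2.27 ± 0.27. Speer4c and Speer4b, of the testis-expressed Speer family on chromosome 5, had 2.31 ± 0.30 and 2.17 ± 0.30; 10 of the 13 tested Speer genes were upregulated. Pcdhgc4, a cadherin of the gamma-protocadherin cluster, had 2, 1 and 2 counts in WT sperm against 597, 213 and 215 in Xap5l KO sperm; its exons overlap 25 other entries of the cluster, and with 1 or 2 counts per WT library no fold is given for it here.

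Apart from Fam50b, the largest falls by the same ranking were in mt-Rnr1, Spink14 and leukocyte genes. Cxcr2 and Fabp3, below 5 CPM, fell further than the leukocyte genes of this ranking and are given below. mt-Rnr1, the mitochondrial 12S ribosomal RNA, had 202821, 184049 and 171240 counts in WT sperm against 56425, 18931 and 42350 in Xap5l KO sperm, a log2 change of -2.41 ± 0.55 (adjusted p = 0.0259). The 2 tested mitochondrial ribosomal RNAs had a median log2 fold change of -1.71, so the other was also lower, though only mt-Rnr1 was called. The libraries were selected for poly(A) RNA, and none of the 13 mitochondrial protein-coding genes was called (log2 fold changes from -0.23 to 0.57). Spink14, of the Spink family of serine protease inhibitors, had 1696, 3110 and 2812 counts in WT sperm against 505, 680 and 1542 in Xap5l KO sperm and a log2 change of -1.81 ± 0.31 (adjusted p = 0.0141). Evi2b, a leukocyte membrane protein, had 525, 582 and 800 counts in WT sperm against 149, 295 and 239 in Xap5l KO sperm and -1.78 ± 0.21 (adjusted p = 0.0118). Each of these was lower in all 3 Xap5l KO libraries.
The remaining falls of this ranking were in leukocyte genes. Csf3r, the granulocyte colony-stimulating factor receptor of neutrophils, had 357, 519 and 616 counts in WT sperm against 68, 299 and 217 in Xap5l KO sperm and a log2 change of -1.71 ± 0.33 (adjusted p = 0.0177). Fgr, a Src-family kinase of myeloid cells, had 225, 273 and 375 counts in WT sperm against 40, 162 and 128 in Xap5l KO sperm and -1.76 ± 0.33 (adjusted p = 0.0165). Xap5l KO replicate 1 was the lowest library for both. Clec4d, Cd93, Ccl24 and Serpinb2, respectively a C-type lectin receptor of myeloid cells, a phagocyte and endothelial surface protein, a chemokine and a macrophage plasminogen-activator inhibitor, had log2 changes of -1.89 ± 0.44, -1.68 ± 0.38, -1.78 ± 0.37 and -1.80 ± 0.42.

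Of the 10 called genes with the most counts 8 rose, near the 85.6% of all called genes that were upregulated. Akap4, the main anchor protein of the fibrous sheath around the principal piece of the tail, had 34365, 34256 and 33217 counts in WT sperm against 59651, 87224 and 128905 in Xap5l KO sperm, a log2 change of 1.09 ± 0.30 (adjusted p = 0.0452). Iqcf3, a sperm protein with an IQ calmodulin-binding motif, had 22897, 20157 and 19107 counts in WT sperm against 58712, 60972 and 119042 in Xap5l KO sperm and a log2 change of 1.60 ± 0.34 (adjusted p = 0.0218). Xap5l KO replicate 3 was the highest library for both. Fam71f2, Actl11, Atp8b3, Nrd1, Csnka2ip and Nup98 had log2 changes of 1.24, 1.22, 1.21, 1.15, 1.40 and 1.24, each with SE between 0.26 and 0.33. The other two were mt-Rnr1 and Gpx3, a secreted glutathione peroxidase that the epididymal epithelium makes, which had 75266, 126821 and 150663 counts in WT sperm against 48698, 76024 and 78116 in Xap5l KO sperm and fell by 1.06 ± 0.30 on the log2 scale (adjusted p = 0.0487).

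The most abundant sperm transcripts were not called. Smcp, a cysteine-rich protein of the mitochondrial capsule and the nuclear gene with the most counts, had 2638622, 1187597 and 1751215 counts in WT sperm against 1426353, 935367 and 978906 in Xap5l KO sperm. Its log2 change was -0.97 ± 0.59 (adjusted p = 0.267), and the genotypes overlapped. Odf1, the main outer dense fibre protein, had 975613, 506434 and 567090 counts in WT sperm against 328087, 361366 and 1015380 in Xap5l KO sperm, with a log2 change of -0.69 ± 0.54 (adjusted p = 0.382) and again overlapping genotypes. Prm2, protamine 2, had 461208, 346740 and 384177 counts in WT sperm against 839198, 796591 and 1230584 in Xap5l KO sperm, with no overlap, but its spread left a log2 change of 0.96 ± 0.43 and an adjusted p of 0.151. Over the 16 lists of sperm and spermiogenesis genes used below, 440 genes were tested and 142 were upregulated (32.3%). By mean CPM over all 6 libraries, 81 of the 229 genes from 5 to 50 CPM (35.4%) and 47 of the 129 from 50 to 500 CPM (36.4%) were upregulated, against 12 of 55 under 5 CPM (21.8%) and 2 of 27 over 500 CPM (7.41%).

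**Figure D2:**
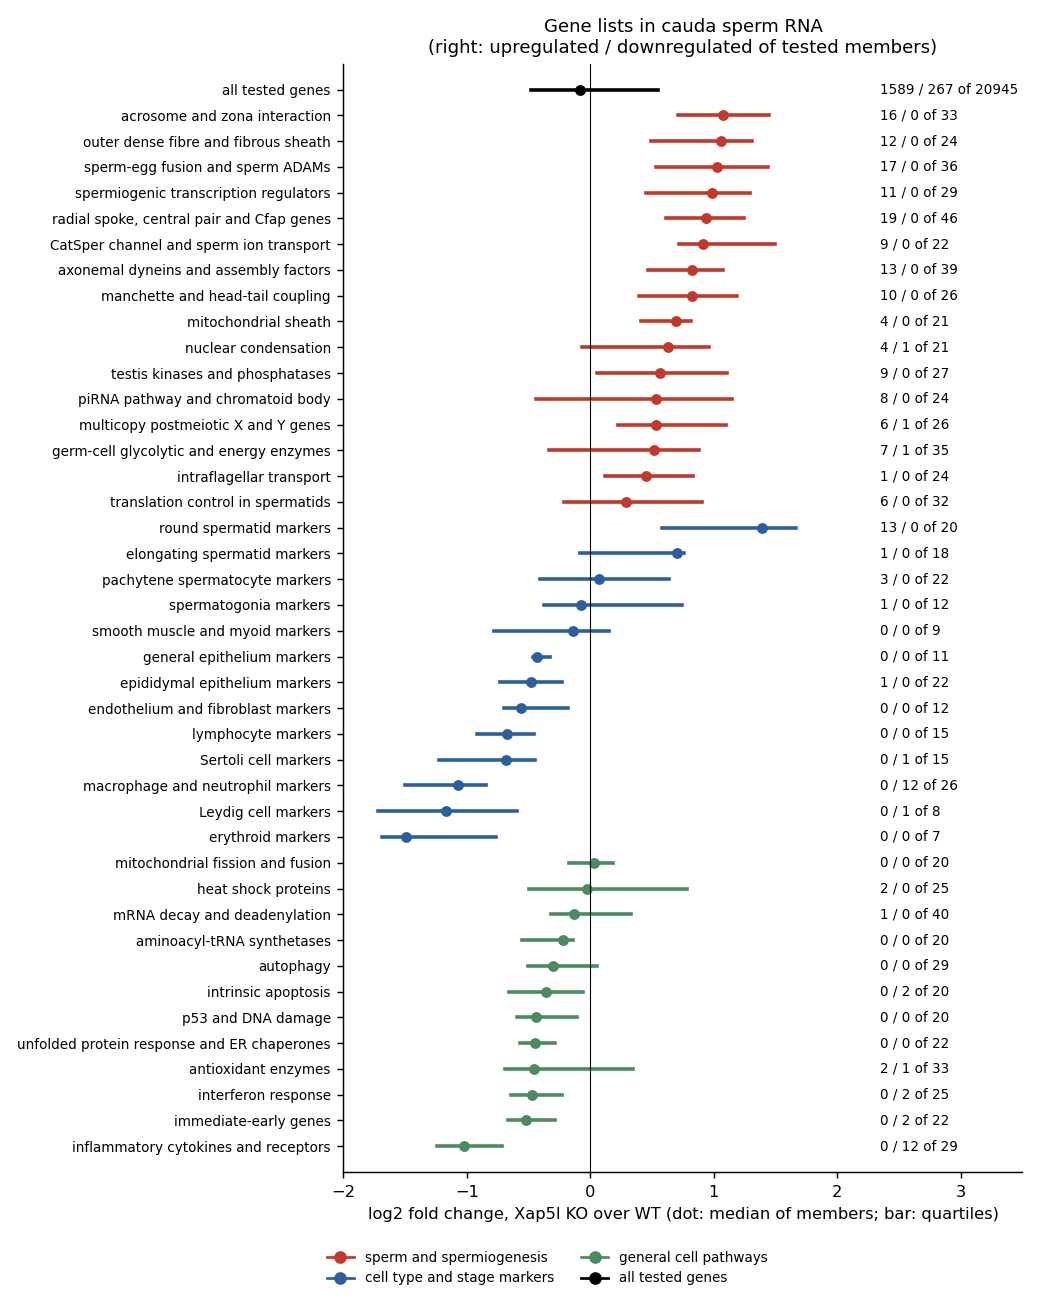
Median (dot) and quartiles (bar) of the log2 fold change of the tested members of each gene list, Xap5l KO over WT, with the numbers upregulated, downregulated and tested at the right. Sperm and spermiogenesis lists (red) have medians from 0.29 to 1.08 and the round spermatid markers 1.39, while the macrophage and neutrophil markers stand at -1.07 and the inflammatory cytokines at -1.02; all tested genes stand at -0.08.

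Genes of the tail had more rises than the table as a whole, in which 7.59% of genes were upregulated, though most of them did not pass the threshold. Of the 46 tested genes of the radial spokes, the central pair and the Cfap family, which together make the regulatory parts of the axoneme, 19 were upregulated and none fell (median log2 fold change 0.93, against -0.08 over all genes). In 32 of the 46 the 3 Xap5l KO libraries all exceeded the 3 WT libraries, against 19.2% of all tested genes. Without Xap5l KO replicate 1 the count fell from 19 to 5. Spag6, of the central pair, had 434, 512 and 523 counts in WT sperm against 1903, 3255 and 2525 in Xap5l KO sperm and a log2 change of 2.1 ± 0.21 (adjusted p = 0.0118). Cfap73, of the complex that modifies the inner dynein arms, had 16, 31 and 23 counts in WT sperm against 78, 181 and 142 in Xap5l KO sperm and 2.20 ± 0.33, and Rsph1, the member with the most counts, 0.35 ± 0.28 (adjusted p = 0.396). Axonemal dyneins, the motors of the beat, and their assembly factors had 13 of 39 upregulated and none down (median 0.83), and 2 upregulated without Xap5l KO replicate 1. Dnaaf1, an assembly factor, had 6022, 5324 and 5826 counts in WT sperm against 12373, 22797 and 13137 in Xap5l KO sperm and a log2 change of 1.19 ± 0.29 (adjusted p = 0.0325), and Dnah5, an outer arm heavy chain, 1.69 ± 0.38. Both groups were higher in each Xap5l KO library than in any WT library when summed: 1179 to 1717 CPM against 1808 to 3005 CPM for the radial spoke list and 636 to 908 CPM against 1019 to 1635 CPM for the dyneins. Intraflagellar transport, which carries the axoneme's parts, moved less, with 1 of 24 upregulated (Ift43, 1.14 ± 0.20) and a median of 0.45. Of 41 kinesins 4 were upregulated (9.76%, near the share of all genes, and none without Xap5l KO replicate 1), among them Kif2c, a depolymerising kinesin, at 1.18 ± 0.30.

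The accessory structures of the tail changed by member rather than by bulk. Of 24 outer dense fibre and fibrous sheath genes 12 were upregulated (median 1.06). Their summed level overlapped between genotypes: WT libraries ran from 24000 to 52040 CPM, Xap5l KO libraries from 25180 to 38100 CPM. Odf1, the member with the most counts, had a mean of 17960 CPM for WT against 11110 CPM for Xap5l KO. Odf2 went the other way, from 1650 to 3227 CPM, and neither gene was called. Fsip1, a fibrous sheath interactor, had 245, 276 and 278 counts in WT sperm against 988, 1546 and 982 in Xap5l KO sperm and a log2 change of 1.87 ± 0.25 (adjusted p = 0.0118). Tekt2, a tektin filament protein of the doublet microtubules, had 1637, 1519 and 1575 counts in WT sperm against 5622, 8866 and 5217 in Xap5l KO sperm and 1.78 ± 0.29 (adjusted p = 0.0129). Tekt4 and Akap3 had 1.69 ± 0.27 and 1.3 ± 0.27. Among the 21 tested genes of the mitochondrial sheath list 4 were upregulated. The largest rise was in Dnajb13, at 1.54 ± 0.30, which is on this list although it is an axonemal cochaperone. CatSper, the calcium channel of the principal piece, and the other ion transporters had 9 of 22 upregulated and none down (median 0.91). Of the 22, 19 were higher in every Xap5l KO library, against 19.2% of all tested genes. Catsper1, a pore subunit, had 691, 641 and 646 counts in WT sperm against 2739, 3498 and 1259 in Xap5l KO sperm, with replicate 3 much lower than the other Xap5l KO libraries, and a log2 change of 1.70 ± 0.41 (adjusted p = 0.0314). Lrrc52, the auxiliary subunit of the sperm potassium channel, had 1.71 ± 0.39, Kcnu1, its pore subunit, 1.55 ± 0.26, and Slc9c1, the sperm sodium/proton exchanger, 1.52 ± 0.28. Atp1a4, the sodium pump of the tail, had 8537, 9240 and 9209 counts in WT sperm against 19596, 30689 and 42540 in Xap5l KO sperm and 1.45 ± 0.25.

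Lists of the head and of fertilization also held more upregulated genes than the table as a whole. Acrosome and zona interaction genes had 16 of 33 upregulated and none down (median 1.08), and sperm-egg fusion genes with the sperm ADAM proteins 17 of 36 (median 1.02). Without Xap5l KO replicate 1 these counts were 10 and 9. Spaca1, an acrosomal membrane protein, had 385, 544 and 389 counts in WT sperm against 1529, 2114 and 1935 in Xap5l KO sperm and a log2 change of 1.80 ± 0.23 (adjusted p = 0.0118). Fam170b, an acrosomal protein of late spermatids, had 1.82 ± 0.27, and Acr, the acrosomal protease acrosin, 1.65 ± 0.46 on 974, 864 and 1139 counts in WT sperm against 4090, 5145 and 1473 in Xap5l KO sperm. Acr had an adjusted p of 0.0462, its genotypes overlapped in CPM, and it was called in only 1 of the fits without 1 library. Izumo1, the fusion protein that binds the egg's Juno, had 344, 375 and 380 counts in WT sperm against 1242, 1783 and 1105 in Xap5l KO sperm and a log2 change of 1.65 ± 0.26 (adjusted p = 0.0128), although its exons overlap Rasip1 and reads there cannot be told apart. Tmem95, Dcst1 and Dcst2, further fusion proteins, had 1.60 ± 0.30, 1.38 ± 0.23 and 1.56 ± 0.31, and Adam2 and Adam3, needed for sperm to pass into the oviduct, 1.46 ± 0.23 and 1.23 ± 0.25. Manchette and head-tail coupling genes had 10 of 26 upregulated (median 0.83), and 3 without Xap5l KO replicate 1. Sun5, a nuclear envelope protein that holds the tail on the head, had 342, 261 and 345 counts in WT sperm against 1186, 1487 and 1015 in Xap5l KO sperm and 1.70 ± 0.29 (adjusted p = 0.0144).

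Nuclear condensation showed fewer calls, with 4 of 21 upregulated and 1 downregulated (median 0.63). Prm1, Tnp1 and Tnp2, protamine 1 and the transition proteins, had log2 changes of 0.70 ± 0.33, 0.50 ± 0.42 and 0.42 ± 0.33, none past the threshold. Rnf8, the ubiquitin ligase that marks spermatid chromatin before histones leave it, had 208, 351 and 416 counts in WT sperm against 115, 174 and 259 in Xap5l KO sperm and -1.12 ± 0.25 (adjusted p = 0.0236), and it shares exons with a predicted gene. Of 29 spermiogenic transcription regulators 11 were upregulated and none fell (median 0.99). Foxj1, Rfx1 and Rfx4, regulators of ciliary genes, had 2.11 ± 0.41, 1.21 ± 0.27 and 1.29 ± 0.35, against -0.16 ± 0.33 for Rfx2 (adjusted p = 0.753). Rfx4 had an adjusted p of 0.0444, its genotypes overlapped in CPM, and it was called in only 1 of the fits without 1 library. Rfx3 was not called. Zfp541, a zinc finger protein of late meiosis, had 961, 1156 and 1105 counts in WT sperm against 3037, 6513 and 3451 in Xap5l KO sperm and a log2 change of 1.71 ± 0.27 (adjusted p = 0.0127); over all 378 tested Zfp genes 15 were upregulated (3.97%). In the piRNA pathway and the chromatoid body, the RNA-storage granule of round spermatids, 8 of 24 were upregulated (median 0.53). Tdrd6, which organises that granule, had 1798, 2040 and 1694 counts in WT sperm against 4165, 11026 and 5086 in Xap5l KO sperm and 1.54 ± 0.32 (adjusted p = 0.0199), and Mael, Gtsf1 and Ddx4 1.21 ± 0.27, 1.25 ± 0.23 and 1.13 ± 0.24. Testis kinases and phosphatases had 9 of 27 upregulated and the translation control list 6 of 32. Coiled-coil Ccdc genes, many of them structural parts of the axoneme, had 27 of 132 upregulated and 1 downregulated (20.5% and 0.758%; median 0.40). Leaving out Xap5l KO replicate 1 left 4 upregulated outer dense fibre and fibrous sheath genes, 1 mitochondrial sheath gene, 6 CatSper and ion transport genes, 3 transcription regulators, 2 piRNA pathway genes and no nuclear condensation gene.

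Markers of the germ line are given by stage, with no test between stages. Of 20 round spermatid markers 13 were upregulated, all 20 had a positive log2 fold change, and the median was 1.39. Of 18 elongating spermatid markers Akap4 was upregulated (median 0.70, 13 of 18 positive; DESeq2 called 4), of 22 pachytene spermatocyte markers 3 (Hspa2, Spag16 and Ldhc; median 0.07) and of 12 spermatogonia markers 1 (Ddx4; median -0.08). These shares were 5.56, 13.6 and 8.33%, against 65% of the round spermatid markers and 7.59% of all tested genes. The elongating spermatid and spermatogonia shares were thus near that of all genes. The round spermatid count was again 13 without WT replicate 1 or Xap5l KO replicate 3, 10 without Xap5l KO replicate 1 and 0 in each of the other 3 fits without 1 library, in which almost no gene of the table was called. Across all 6 fits 13 or 14 of the 20 were more than 2-fold higher at an unadjusted p under 0.05. Summed pachytene markers were 1323 to 2425 CPM in WT and 2493 to 2723 CPM in Xap5l KO. This difference came mainly from Ldhc, Hspa2 and Ybx2, the last not called, and 11 of the 22 markers had negative values. Summed round spermatid markers were 4202 to 7660 CPM in WT and 6614 to 8895 CPM in Xap5l KO. The round spermatid sum is mostly Spata18, a mitochondrial quality-control protein, which had 0.45 ± 0.38 (adjusted p = 0.415). Round spermatid markers thus moved with the sperm lists above, with which they share members, and their part in those lists' rises was not tested. In bulk RNA, more or fewer cells of a type and more or less RNA per cell cannot be told apart.

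Immune genes were among the falls, though many did not pass the threshold. Of 26 tested macrophage and neutrophil markers 12 were downregulated and none was upregulated (median -1.07), against 1.27% downregulated of all tested genes. In 20 of the 26 every Xap5l KO library was below every WT library, against 19.2% of all tested genes. Their summed level was 1299 to 1600 CPM in WT and 387, 713 and 861 CPM in Xap5l KO replicates 1, 2 and 3, and Ly6g, a defining neutrophil marker, was at 0 in all libraries. Lyz2, lysozyme and the member with the most counts, had 18896, 22647 and 27146 counts in WT sperm against 2748, 12878 and 19191 in Xap5l KO sperm and a log2 change of -1.41 ± 0.44 (adjusted p = 0.0625), so it was not called, although in CPM every Xap5l KO library was below every WT library. S100a9, a calcium-binding protein of neutrophils, had 44, 120 and 119 counts in WT sperm against 13, 28 and 40 in Xap5l KO sperm and -2.09 ± 0.40 (adjusted p = 0.0171), and Cxcr2, the neutrophil chemokine receptor, 29, 47 and 26 counts in WT sperm against 10, 2 and 4 in Xap5l KO sperm and -2.83 ± 0.68 (adjusted p = 0.0309). H2-Aa and H2-Ab1, the class II antigen-presenting chains, had -1.10 ± 0.28 and -1.21 ± 0.23, Mrc1, the mannose receptor, -1.31 ± 0.24, and C1qa, of complement, -1.04 ± 0.27. Adgre1 and Itgam, defining macrophage markers, had -0.84 ± 0.46 and -0.46 ± 0.54 and were not called.
Inflammatory cytokines and their receptors had 12 of 29 downregulated and none up (median -1.02). This list shares members with the macrophage and neutrophil markers, among them Cxcr2 and Il1b, so the counts of the lists are not separate. Il1b, interleukin 1 beta, had 722, 832 and 1216 counts in WT sperm against 185, 477 and 470 in Xap5l KO sperm and a log2 change of -1.63 ± 0.24 (adjusted p = 0.0122). Nlrp3, the inflammasome sensor, and Tlr2, a receptor for bacterial lipoproteins, had -1.62 ± 0.40 and -1.60 ± 0.44. Cxcl1, Cxcl2, Ccl3 and Ccl4, chemokines, had -1.43 ± 0.34, -1.39 ± 0.40, -1.11 ± 0.31 and -1.22 ± 0.31. Without Xap5l KO replicate 1, the library with the lowest immune levels, 6 of the 26 markers and 5 of the 29 cytokine genes were still called, and without WT replicate 1, 7 and 6. None was called in the fits that left out Xap5l KO replicate 2 or either of WT replicates 2 and 3. Of the markers 12 to 18 and of the cytokine genes 9 to 18 were more than 2-fold lower at an unadjusted p under 0.05 across the fits without 1 library.

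Markers of the other cells that could be present had few calls, and the medians of these lists lay below 0. Of 15 lymphocyte markers none was called (median -0.68), and their summed level was 252 to 351 CPM in WT and 111 to 223 CPM in Xap5l KO. Erythroid markers had a median of -1.50 with none of 7 called; WT replicate 1 alone held 22840 CPM of them against 4507 and 6966 CPM in the other WT libraries, and without it none was called either. Hbb-bs, beta-globin, had 231032, 62464 and 117811 counts in WT sperm against 66837, 31682 and 63044 in Xap5l KO sperm. Epididymal epithelium markers had 1 of 22 called (median -0.48), with sums of 7223 to 9823 CPM in WT and 5078 to 7315 CPM in Xap5l KO. Crisp1, the secreted epididymal protein with the most counts, had 170163, 302789 and 289078 counts in WT sperm against 162972, 214751 and 303515 in Xap5l KO sperm and -0.44 ± 0.34 (adjusted p = 0.385). The called member was Cftr, the chloride channel, which rose: 137, 99 and 133 counts in WT sperm against 410, 546 and 522 in Xap5l KO sperm, a log2 change of 1.71 ± 0.26 (adjusted p = 0.0125). Of 15 Sertoli cell markers 14 had negative values (median -0.68) and 1 was downregulated, Cldn11 at -1.53 ± 0.34, but the summed level was higher in Xap5l KO (1190 to 1450 CPM against 823 to 951 CPM) through clusterin (Clu), which the epididymis also makes in quantity and which had 20506, 29559 and 34138 counts in WT sperm against 45930, 69556 and 60935 in Xap5l KO sperm and 0.81 ± 0.26 (adjusted p = 0.0703). Of 8 Leydig cell markers all had negative values (median -1.17) and 1 was downregulated, Fabp3 at -2.23 ± 0.60. None of 9 smooth muscle, 11 general epithelium and 12 endothelium and fibroblast markers was called. The summed level of the endothelium and fibroblast markers was 735 to 1067 CPM in WT and 294 to 615 CPM in Xap5l KO. That of the smooth muscle markers went the other way, at 73.1 to 103 CPM in WT and 129 to 158 CPM in Xap5l KO, with Actg2 the member with the most counts. The defining markers Nanos2 (spermatogonia) and Lcn9 (epididymis) were at 0 in all libraries. What part these cells have in the falls above was not tested.

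**Figure D3:**
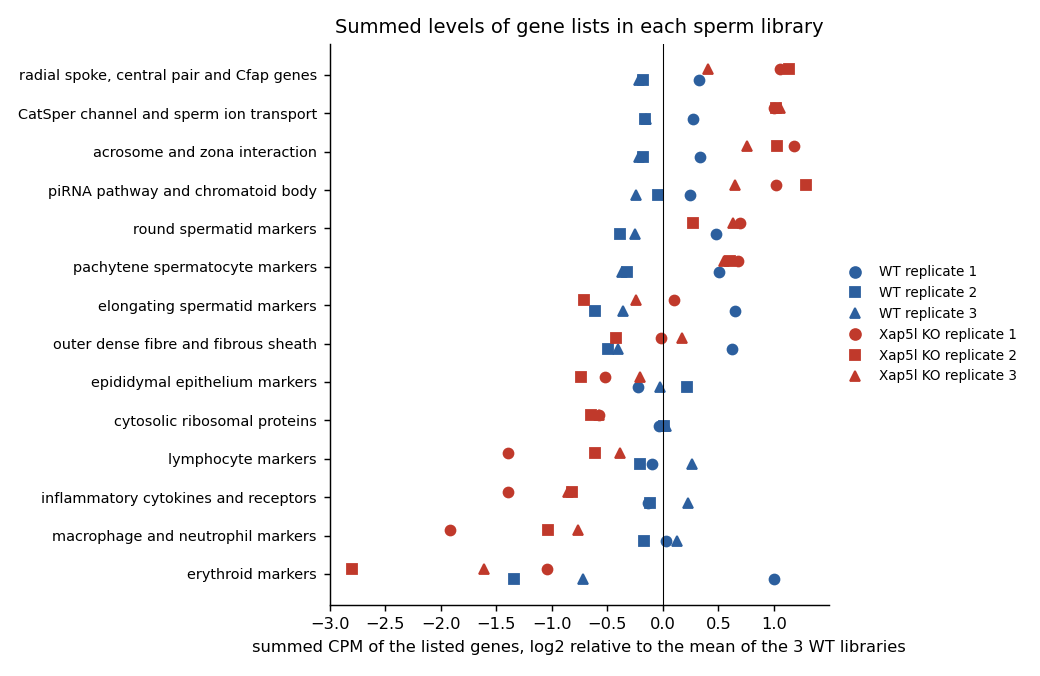
Summed CPM of gene lists in each of the 6 sperm libraries, as log2 relative to the mean of the 3 WT libraries; blue symbols are WT, red symbols Xap5l KO, and the shape marks the replicate. The axonemal, CatSper, acrosome and piRNA lists lie above every WT library in all 3 Xap5l KO libraries, the ribosomal, macrophage and cytokine lists below, and the elongating spermatid, outer dense fibre and erythroid sums overlap.

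Housekeeping machinery lay slightly lower and almost without calls. Of 86 cytosolic ribosomal protein genes 65 were lower in every Xap5l KO library than in any WT library (19.2% over all tested genes), with a median log2 fold change of -0.57 that stayed between -0.59 and -0.49 under the other scalings and tools. Their summed level was 29660 to 30920 CPM in WT and 19390 to 20450 CPM in Xap5l KO. None fell by more than 2-fold; without the fold threshold 8 were lower and 2 higher at an adjusted p under 0.05, which held for 3.07% and 9.02% of all tested genes. Rpl10l, the autosomal germ-cell copy of Rpl10, was the member that rose past 2-fold, with 463, 503 and 582 counts in WT sperm against 1188, 2257 and 2110 in Xap5l KO sperm and 1.52 ± 0.19 (adjusted p = 0.0118). Nuclear oxidative phosphorylation genes had a median of -0.30 with 1 of 95 called (Cox6b2, the germ-cell form of a cytochrome c oxidase subunit, 1.02 ± 0.29), proteasome subunits -0.29 with 0 of 42, and translation initiation factors -0.26 with 0 of 54. Among damage and stress lists, heat shock proteins had 2 of 25 upregulated (median -0.025) and antioxidant enzymes 2 upregulated and 1 downregulated of 33 (median -0.45). The upregulated shares of 8 and 6.06% were near the 7.59% of all tested genes. The p53 and DNA damage list had 0 of 20 called, autophagy 0 of 29, the unfolded protein response 0 of 22 and mitochondrial fission and fusion 0 of 20; at an unadjusted p under 0.05, none of the 91 genes of the latter 4 lists was more than 2-fold changed either (11.4% of all tested genes were higher and 2.89% lower by that rule). Intrinsic apoptosis had 2 of 20 downregulated: Xiap, a caspase inhibitor, with 1366, 2726 and 3301 counts in WT sperm against 1248, 631 and 892 in Xap5l KO sperm and -1.51 ± 0.41 (adjusted p = 0.0419), and Apaf1, the apoptosome scaffold, at -1.0 ± 0.27. Interferon genes had 2 of 25 downregulated (Ifitm2 at -1.29 ± 0.37 and Ifitm3 at -1.13 ± 0.20) and immediate-early genes 2 of 22 (Fosl2 at -1.19 ± 0.25 and Nr4a1 at -1.08 ± 0.28). The downregulated shares of the apoptosis, interferon and immediate-early lists were 10, 8 and 9.09%, each from 2 calls, against 1.27% of all tested genes. Mitochondrially encoded genes had only mt-Rnr1 called among 33 (median -0.0026).

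Many enzymes and housekeeping proteins have a germ-cell form beside the general form, and the members of such pairs moved apart. The pairs were drawn up after the values had been seen, so they are described without a test. In 31 of 33 tested pairs the germ-cell gene had the higher log2 fold change. Of the 33 germ-cell genes 17 were upregulated and none fell (median 1.05); of their 31 general counterparts none was called (median -0.43). Hspa2, the germ-cell heat shock protein, had 3885, 4047 and 4276 counts in WT sperm against 11940, 25972 and 9599 in Xap5l KO sperm, a log2 change of 1.67 ± 0.36 (adjusted p = 0.0218). Hspa8, its constitutive relative, had 6652, 9806 and 11564 counts in WT sperm against 4059, 6947 and 7646 in Xap5l KO sperm, a log2 change of -0.88 ± 0.21. Rpl10l, given above, stood beside -0.81 ± 0.24 for Rpl10, and Pdha2 (1.13 ± 0.23) beside Pdha1 (-0.72 ± 0.23), both pyruvate dehydrogenase subunits. Ldhc, the sperm lactate dehydrogenase, had 1.05 ± 0.27 and Ldha 0.52 ± 0.21, whereas Ldhb, the third subunit gene, was downregulated at -1.16 ± 0.23 on 8040, 11549 and 13607 counts in WT sperm against 3634, 6703 and 8060 in Xap5l KO sperm. The exceptions were 2: Cstf2t had -0.41 ± 0.23 against 0.09 ± 0.23 for Cstf2, and Psma8 -0.70 ± 0.39 against -0.46 ± 0.21 for Psma7. Reads that fit both genes of a pair may have been split between them, since how the authors' counting treated such reads is not given.

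**Figure D4:**
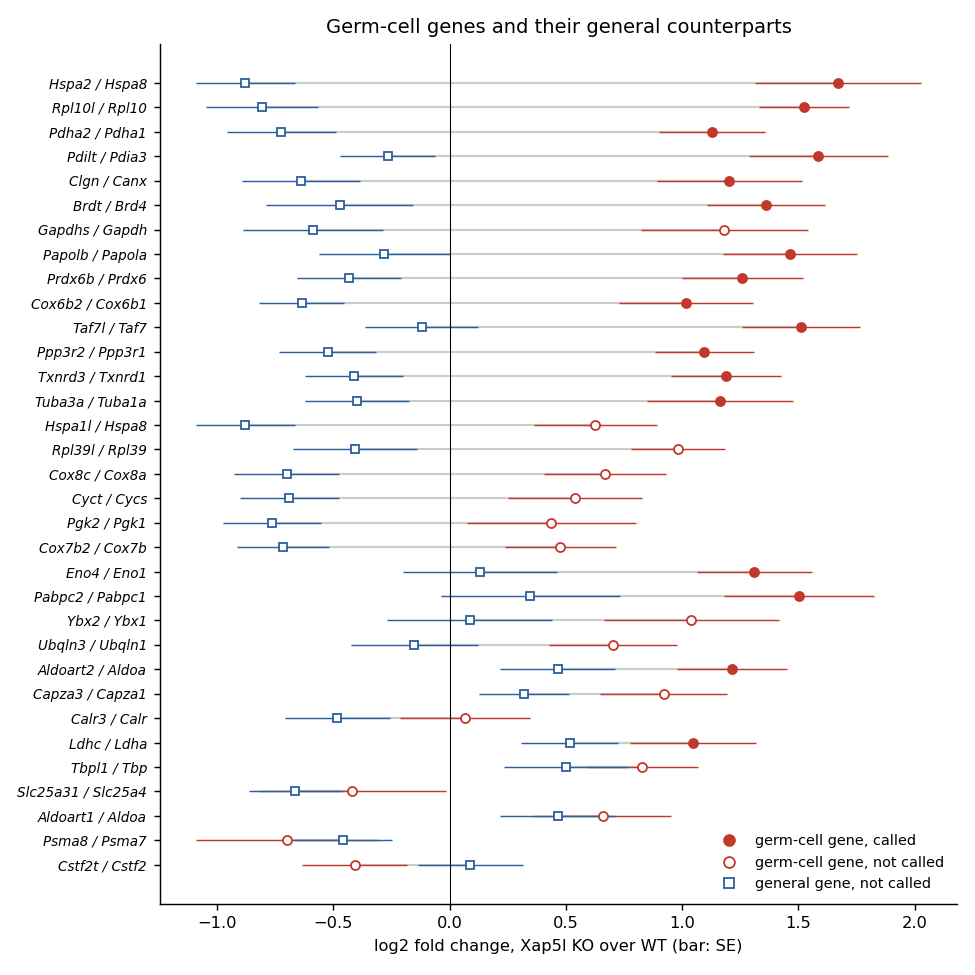
Log2 fold change with its SE (horizontal axis, Xap5l KO over WT) of germ-cell genes (red circles) and their general counterparts (blue squares), with a pair on each line, ordered by the difference; filled symbols are called. The germ-cell gene lies to the right of its counterpart in 31 of 33 pairs, and the median is 1.05 for the germ-cell genes and -0.43 for the general genes.

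The calls were spread over all nuclear chromosomes but denser on the X chromosome and chromosome 14. On X, 167 of 884 tested genes (18.9%) were upregulated, on 14 146 of 835 (17.5%) and on 5 139 of 1381 (10.1%), against 4.94 to 7.84% on the other autosomes. On chromosomes 14 and 5 most of these were predicted genes or unnamed clones (114 and 79). Counting only genes with a proper name, 32 of 542 (5.90%) were upregulated on 14, 60 of 971 (6.18%) on 5 and 78 of 641 (12.2%) on X, against 943 of 15843 (5.95%) over the genome. X-linked members of the lists included Akap4, Akap14, Fam47c, Taf7l (1.51 ± 0.25), a germ-cell paralog of a general transcription factor, and the multicopy genes Ssxb2 (2.24 ± 0.33), Ssxb1 (2.06 ± 0.34) and Slxl1 (1.96 ± 0.32), whose copies share reads. On Y 5 of 82 (6.10%) were upregulated, near the 7.59% of all tested genes, and the median log2 fold change was 0.91. In 42 of the 82 every Xap5l KO library was higher, against 19.2% of all tested genes. Only 14 of the 82 had a proper name, and 1 of these was upregulated.
By class, 1193 of 16019 protein-coding genes were upregulated (7.45%) and 234 downregulated (1.46%). Long intergenic and antisense RNAs had like shares upregulated (8.18% of 929 and 8.03% of 859) and few downregulated (0.538% and 0.233%). Unprocessed pseudogenes had 49 of 182 upregulated (26.9%), the highest share among classes with at least 100 tested genes. Upregulated genes were also shorter: their median exonic length was 2284 bases against 3447 bases over all tested genes and 2625 bases for downregulated genes, and 14.5% of genes from 883 to 1497 bases were upregulated against 4.80% of those from 8854 bases up.

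Promoters of the upregulated genes differed in sequence from those of tested genes in general. RefSeq promoters of GRCm38.p6, from 250 bases before to 50 after a start, were matched by symbol for 13705 tested genes, 1009 of them upregulated and 183 downregulated. The median promoter GC content was 60.0% over all, 52.7% for upregulated and 56.0% for downregulated genes, and the median number of CpG dinucleotides 19, 8 and 9. Motifs were searched as exact letters on both strands, and none of the 5 strings contains another. In the 250 bases before the start, a GC box (CCCCGCCC) was found in 28.9% of all tested genes, 16.8% of upregulated and 23.5% of downregulated genes; it was found in 16.1% of all 32851 windows of the table. The X-box motif (GTTGCCAT), a core of the element that RFX factors bind, was found in 1.36% of all tested genes (187), 3.67% of upregulated genes (37) and 1.64% of downregulated genes (3), and in 1.12% of all windows. A forkhead site (TGTTTAC) was found in 2.85, 3.17 and 1.09% of all, upregulated and downregulated genes (3.17% of windows), a cyclic AMP response element (TGACGTCA) in 2.71, 2.97 and 2.19% (1.55%), and a TATA box (TATAAA) in 9.06, 10.2 and 13.1% (12.4%). The order of these shares was the same with the 50 bases after the start included. Motif matches are a description of letters, not of binding. The 4 upregulated genes with an X-box motif and the most counts are shown with the 250 bases before their start, 5′ to 3′ on the gene's strand, and the motif, in either orientation, in capitals:
Rab3il1 (chr19:10001419-10001668, plus strand): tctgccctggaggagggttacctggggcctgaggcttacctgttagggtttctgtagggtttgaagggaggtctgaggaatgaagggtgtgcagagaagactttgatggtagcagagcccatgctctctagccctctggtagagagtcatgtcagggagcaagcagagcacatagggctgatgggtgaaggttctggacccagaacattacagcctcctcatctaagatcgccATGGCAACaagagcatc
1700034J05Rik (chr6:146954422-146954671, minus strand): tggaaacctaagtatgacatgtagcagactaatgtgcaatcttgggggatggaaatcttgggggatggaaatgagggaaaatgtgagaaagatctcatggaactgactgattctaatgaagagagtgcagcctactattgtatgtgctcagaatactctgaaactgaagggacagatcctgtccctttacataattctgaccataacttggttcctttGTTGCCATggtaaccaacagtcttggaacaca
1700010I14Rik (chr17:8988083-8988332, plus strand): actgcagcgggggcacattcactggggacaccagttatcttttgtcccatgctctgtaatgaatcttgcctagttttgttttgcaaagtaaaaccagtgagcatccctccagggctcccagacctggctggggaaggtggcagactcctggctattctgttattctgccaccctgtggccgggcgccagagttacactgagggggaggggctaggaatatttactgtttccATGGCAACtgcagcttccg
Nsun7 (chr5:66259648-66259897, plus strand): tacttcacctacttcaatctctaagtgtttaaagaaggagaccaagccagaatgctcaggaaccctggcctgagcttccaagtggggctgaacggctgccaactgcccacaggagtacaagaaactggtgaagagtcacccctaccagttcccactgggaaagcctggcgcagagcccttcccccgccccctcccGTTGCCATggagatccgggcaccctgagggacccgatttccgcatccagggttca
The motif began 17, 32, 19 and 55 bases before the start, in that order. Rab3il1, an exchange factor of Rab GTPases, had 5690, 3895 and 4234 counts in WT sperm against 11364, 13047 and 14560 in Xap5l KO sperm, a log2 change of 1.18 ± 0.30 (adjusted p = 0.0363). Nsun7, a putative RNA methyltransferase needed for sperm motility, had 1961, 1896 and 2185 counts in WT sperm against 4844, 6365 and 5633 in Xap5l KO sperm and 1.21 ± 0.23 (adjusted p = 0.0167). The uncharacterised 1700034J05Rik and 1700010I14Rik had 1.29 ± 0.28 and 1.46 ± 0.28. In all 4 genes each Xap5l KO library exceeded each WT library.

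**Figure D5:**
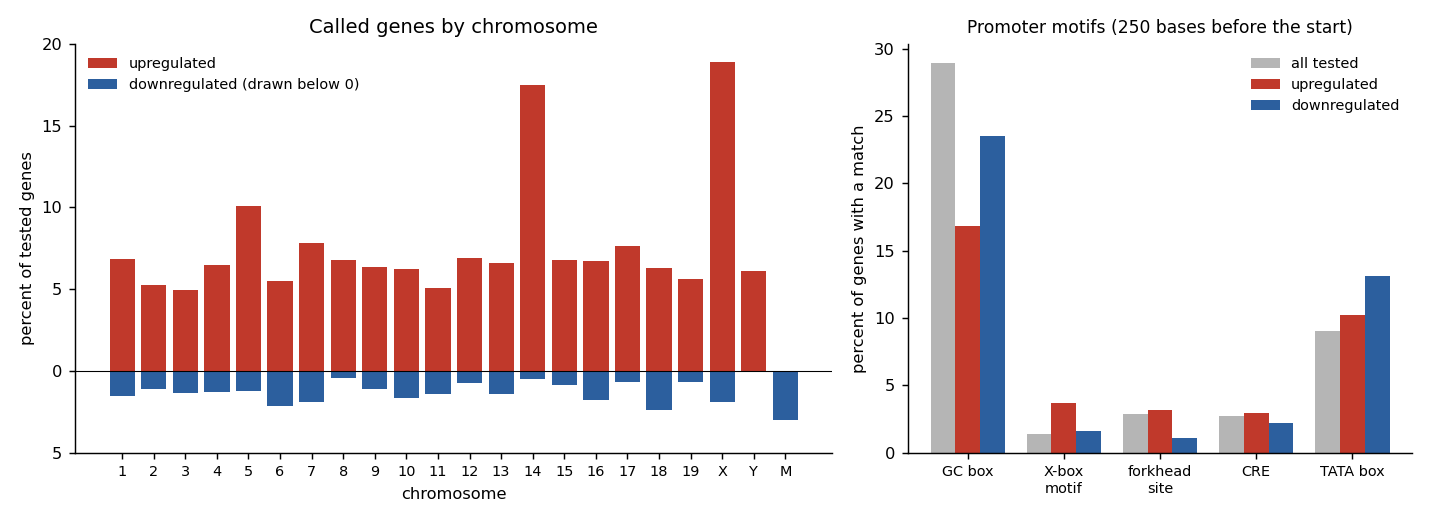
Left, percent of tested genes upregulated (red) and downregulated (blue, drawn below 0) on each chromosome, highest for X at 18.9% and 14 at 17.5%. Right, percent of tested (grey), upregulated (red) and downregulated (blue) genes with each motif in the 250 bases before a start. Of these gene sets, the upregulated genes have the lowest share with a GC box and the highest share with an X-box motif.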

How the data were processed

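Total RNA of washed cauda sperm was poly(A)-selected and sequenced as paired reads from NEBNext Ultra II libraries. Per the labels and the study's methods, the authors checked reads with FastQC 0.11.2, trimmed them with Trimmomatic 0.36, aligned them to GRCm38 with HISAT2 2.1.0 and tested with DESeq2 1.12.4. The counter and its treatment of strand and of reads that fit several genes are not given in the sources used here. The values used are the raw counts per gene that the authors deposited, 1 column per library and no column of another sample; the table of testes was not used here. GENCODE M21 matched 92% of the entries by symbol.

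Counts of the 3 WT and 3 Xap5l KO libraries were filtered (filterByExpr), scaled by TMM and fitted with edgeR 4.0.16 (R 4.3.3; glmQLFit, glmQLFTest; 2-sided), with genotype as the only term and Benjamini-Hochberg adjustment over all 20945 genes tested. Means and SDs are of TMM-scaled CPM. The total counts of 38881197 to 52308452 per library make 3 counts equal to 0.0515 to 0.091 CPM, the limit that a count of 0 allows; it covers counting error only. No pair of libraries agreed within sampling noise (chi-square per degree of freedom from 61.4), so all 6 were kept. Lists are described by counts of calls and medians, with no test of the list. Named genes were Fam50b, Fam50a and neighbours within 500 kb, the 10 genes with the most counts in WT, the 10 largest rises and 10 largest falls among called genes (no Gm or Rik name, at least 5 CPM in a genotype, genotypes not overlapping), the 10 called genes with the most counts, the most abundant and the most changed members of each list, and genes the study names. Other list members, the neighbour-gene remarks and the paralog pairs were chosen after their values were seen. The comparison and the lists were themselves chosen with earlier results of these data known. Among the 127 genes given with their values, 30 have exons that overlap another annotated gene, so reads there may belong to either.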

Additional observations from a re-analysis of the deposited data

How the results depend on the processing

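The 1589 upregulated and 267 downregulated genes depended most on the number of libraries: without 1 library in turn the counts ran from 1 (leaving out Xap5l KO replicate 2 or either of WT replicates 2 and 3) to 2402 (without Xap5l KO replicate 3) upregulated and from 1 to 443 downregulated, and 483 and 71 remained without Xap5l KO replicate 1. Of the 101 called genes given with their values, Fam50b was called in all 6 of these fits and 47 genes in at least 3. The upregulated count stayed within 1.5 times under other filters, scalings and tools (DESeq2 gave 2125, limma voom 1478). The downregulated count was 149 with library size alone as the scaling and 164 without the mitochondrial and top 10 genes, and the cause was not tested. Looser thresholds gave 2385 and 605 calls (unadjusted p under 0.05), 491 downregulated (adjusted p under 0.1) and 643 downregulated (no fold threshold). Of the 127 genes given with their values in the text 2 changed sign, neither of them called: across the fits without 1 library the log2 change of Rfx2 ran from -0.42 to 0.29 (positive without WT replicate 1) and that of Cstf2 from -0.049 to 0.31 (negative without WT replicate 1 or Xap5l KO replicate 1). Numbers shared between WT and Xap5l KO libraries name no common litter or day, and same-numbered libraries deviated together with r = 0.17, -0.0191 and -0.135, so they were not treated as pairs; with a replicate block the counts were 1147 and 147, and 16 of the 127 genes given with their values lost their call. At 38881197 counts or more per library, genes near 0.091 CPM rest on about 3 reads.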

Other observations

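Dancr, a spliced non-coding RNA on chromosome 5 that hosts small nucleolar RNAs, has 2 entries under its name in the table, and they moved in opposite directions. The first had 18, 26 and 18 counts in WT sperm against 121, 147 and 180 in Xap5l KO sperm (log2 fold change 2.56 ± 0.32, SE). The second had 142, 175 and 197 counts against 4, 26 and 2 (-4.31 ± 0.64). Summed, the entries had 160, 201 and 215 counts against 125, 173 and 182. Both entries were called by the quasi-likelihood test of edgeR (adjusted p = 0.0118 and 0.0122), and in both the genotypes did not overlap. The table holds 187 entries with a repeated name, and 2 more of them were called: the second Lilrb4a entry, an inhibitory receptor of leukocytes, at -1.27 ± 0.23, and the second Map2k7 entry, a stress kinase, at 1.33 ± 0.29.

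Gm28661 and Gm10925, predicted genes on chromosome 1, were among the 10 entries with the most counts in WT. Gm28661 had 622359, 687877 and 550748 counts in WT, close to the 632013, 699760 and 562068 counts of mt-Co2, and in the Xap5l KO libraries 848146, 715717 and 450870 against 862447, 731805 and 458792.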
